A study of Capra hircus with 3 samples.

Results

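The genes described here are marker genes of adipocytes, the cells that store fat in adipose tissue and in the fat pad around the mammary gland. They were chosen by name, as ADIPOQ, LEP, PLIN1, PLIN4, FABP4, CIDEC, LIPE, PNPLA2, CEBPA and GPD1, and their loci were found by NCBI gene ID and summed per ID. Of the 10 genes, 9 had deposited values, among 13023 protein-coding genes in all. FABP4 was found under its synonym A-FABP. LEP, which encodes the hormone leptin, was not analysed here, since no locus listed with a single gene ID carried its ID 100860794. Loci listed with several gene IDs were not searched.

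Adipocytes hold triglyceride in a large lipid droplet. Perilipins and CIDE proteins coat that droplet, lipases release fatty acids from it, FABP4 carries these fatty acids in the cytosol, and GPD1 helps to make the glycerol backbone. The cells also secrete adiponectin and leptin, and the factors C/EBPα and PPARγ switch on their genes. In the lactating gland the fat pad is reduced while the secretory epithelium expands. This epithelium builds lipid droplets of its own for milk fat, so that several genes of lipid handling are shared between the cell types.

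Mammary gland tissue was taken by surgery from Laoshan dairy goats, 5 in number and 4 years old, at 10 days (early lactation), 90 days (peak lactation) and 210 days (late lactation) after parturition. The goats were untreated apart from anaesthesia and were released after recovery. RNA of the 5 goats was mixed within each stage, which gave the E, P and L libraries, 1 per stage. The spread between goats therefore cannot be estimated, and every difference below compares 3 pooled libraries, with no replicate check and no p-value. The values were FPKM, in which fragments are scaled by transcript length and by the mapped reads of a library, so that levels can be set side by side between genes. The reads behind each FPKM are unknown, and no counting interval can be given.

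Columns were assigned to the P and L libraries by the sample labels alone. In the library labelled peak lactation, all 10 listed milk secretion genes were at least 2-fold below the E library, beside 6.80% of all protein-coding genes. CSN3, which encodes κ-casein, had 25445 FPKM in the E library, 3989 in the P library and 27391 in the L library. PTPRC, a gene of all leukocytes, had 17.6, 39.9 and 8.08 FPKM in the same order. Milk protein output is normally high at the peak of lactation, so these values raise a doubt about the label. FPKM is relative to the reads of a library and does not measure output, and whether the label is wrong was not tested. The comparison of the L with the E library does not use the P library, but the doubt reaches it too. If the columns were exchanged, it would compare peak with early lactation. With the columns exchanged, the values given below for P apply to L and those for L to P. The FPKM summed to between 918441 and 1014254 per library, and a few loci held much of this, the 20 most abundant loci making up 58.5% to 63.8%. The locus of highest mean FPKM alone held 30.0% in the E library, 46.0% in the P library and 29.9% in the L library. Its part in the lower FPKM of other genes in the P library was not tested.

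**Figure D1:**
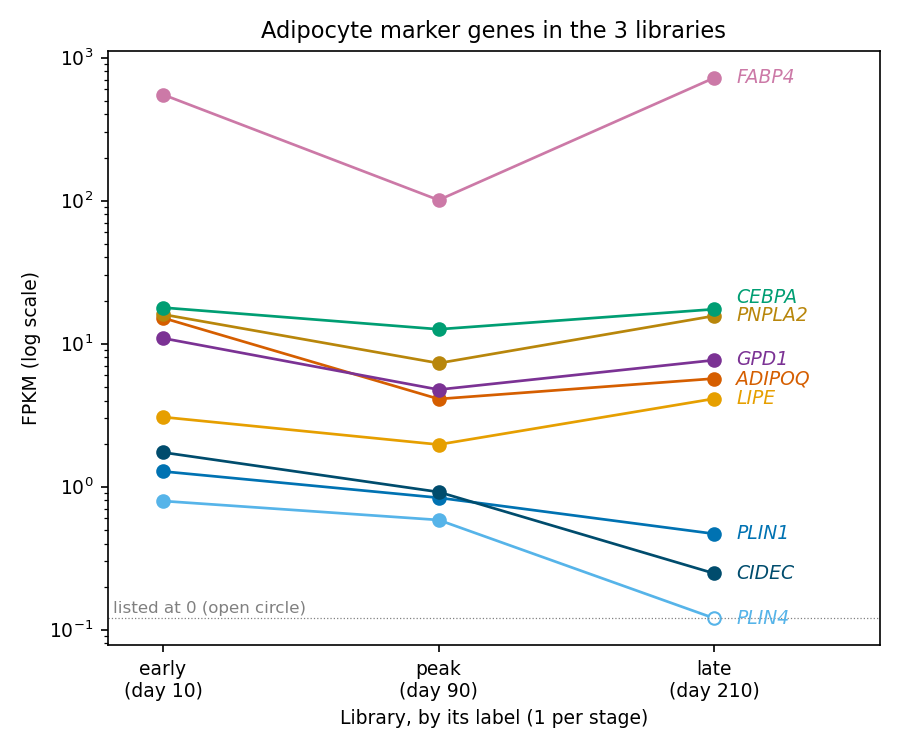
FPKM of the 9 adipocyte marker genes with values (vertical axis, log scale) in the E, P and L libraries (horizontal axis, 1 library per stage, named by label). Each point is 1 library and the lines join values of the same gene. The open circle marks the listed value of 0 for PLIN4. FABP4 lies far above the others, and the 3 droplet coat genes PLIN1, PLIN4 and CIDEC lie lowest in each library.

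The levels of the marker genes spanned a wide range. FABP4 was the most abundant in every library, at 551 FPKM in the E library, 101 in the P library and 722 in the L library. It made up 89.2%, 75.3% and 93.4% of the summed FPKM of the 9 genes. It ranked above 99.5% of protein-coding genes in the E library, 98.3% in the P library and 99.7% in the L library. CEBPA, PNPLA2, ADIPOQ and GPD1 came next and lay between 4.10 and 17.9 FPKM, and LIPE lay between 1.97 and 4.12 FPKM. PLIN1, CIDEC and PLIN4 were the least abundant, with no value above 1.73 FPKM, and in the E library they ranked above only 13.0%, 17.2% and 7.30% of protein-coding genes. With 1 library per stage, it cannot be said which neighbours in this order differ beyond their spread.

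In the P library, all 9 genes were below their level in the E library, as were 49.4% of all protein-coding genes, and 4 of them, FABP4, ADIPOQ, GPD1 and PNPLA2, were at least 2-fold lower. The share of all protein-coding genes called at least 2-fold apart between these libraries was 17.7%, and 6.80% were at least 2-fold lower in the P library. Their log2 ratios of P over E ran from -2.45 for FABP4 to -0.44 for PLIN4, with a median of -0.92, beside a median of -0.03 over the 11479 protein-coding genes of at least 1 FPKM in the E and P libraries. In bulk tissue, fewer cells of a type and less RNA per cell cannot be told apart. The milk secretion genes moved with this difference. Their summed level was 136685 FPKM in the E library and 36574 in the P library, their median log2 ratio was -1.57, and their part in the difference of the adipocyte markers was not tested. When FPKM was rescaled to a common sum without the 20 most abundant loci, only FABP4 and ADIPOQ remained at least 2-fold lower.

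In the L library, 4 genes, PLIN1, CIDEC, ADIPOQ and PLIN4, were at least 2-fold below the E library, and none was at least 2-fold above it. PLIN4 was counted with its listed 0 set to 0.001, and without genes listed at 0 the count was 3 of 8. At least 2-fold apart were 8.71% of all protein-coding genes, and 6.74% were at least 2-fold lower in the L library. LIPE, PNPLA2, CEBPA, GPD1 and FABP4 stayed within 2-fold. The median log2 ratio was -0.51 over the 9 genes, -0.27 over the 8 genes above 0 in both libraries and -0.96 without FABP4, beside -0.01 over protein-coding genes of at least 1 FPKM in the E and L libraries. Of the 4 genes, PLIN1, PLIN4 and CIDEC had a mean under 2 FPKM, and at this abundance 23.4% of protein-coding genes were at least 2-fold lower in the L library. With a pseudocount of 1 FPKM, the genes at least 2-fold lower were reduced to 2, ADIPOQ and CIDEC.

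Between the L and P libraries the genes split. At least 2-fold higher in the L library were FABP4, PNPLA2 and LIPE, and at least 2-fold lower were CIDEC and, by its listed 0, PLIN4. These 5 genes stand beside 25.9% of all protein-coding genes at least 2-fold apart, 8.56% higher and 17.4% lower in the L library. CIDEC and PLIN4 had a mean under 2 FPKM, where 45.4% of protein-coding genes were at least 2-fold lower in the L library. The median log2 ratio of L over P was 0.58 over the 8 genes above 0 in both, and the single ratios ran from -1.89 for CIDEC to 2.84 for FABP4. Rescaling without the 20 most abundant loci gave 1 gene higher, FABP4, and 3 lower, PLIN1 having joined CIDEC and PLIN4. Each library enters 2 of the 3 comparisons, so none of them is independent evidence for another.

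**Figure D2:**
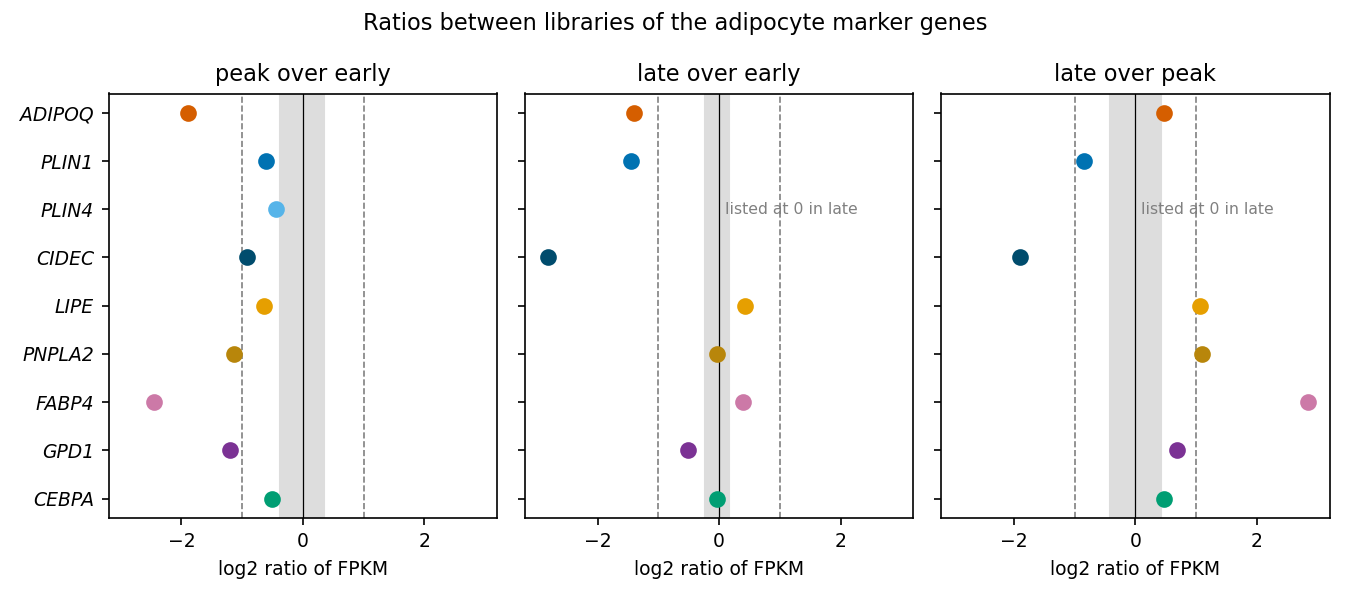
Log2 ratio of FPKM (horizontal axis) of each adipocyte marker gene (vertical axis) for P over E, L over E and L over P. Each point is the ratio of 2 libraries, dashed lines mark a 2-fold difference, and the grey band is the interquartile range of protein-coding genes of at least 1 FPKM in each of the libraries compared. All points lie left of 0 for P over E, while for L over E only ADIPOQ, PLIN1 and CIDEC lie beyond the dashed line, and PLIN4 has no ratio where it is listed at 0.

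ADIPOQ encodes adiponectin, a hormone secreted by adipocytes that raises insulin sensitivity. It is listed on scaffold NW_005100603.1 from 15443727 to 15456664, and while the study's methods name a goat reference genome, nothing beside the values states that this scaffold is part of it. Its FPKM was 15.1 in the E library, 4.10 in the P library and 5.69 in the L library. The E library thus held the highest level, 3.69-fold above the P library and 2.66-fold above the L library. The P and L libraries were closer to each other, with a log2 ratio of L over P of 0.47. The rank of ADIPOQ moved from above 74.2% of protein-coding genes in the E library to above 31.3% in the P library and 45.0% in the L library.

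The receptors of the secreted hormones were also measured, of which ADIPOR1 and LEPR were named after their values were seen. ADIPOR1, a receptor of adiponectin, had 29.4 FPKM in the E library, 17.9 in the P library and 27.0 in the L library. ADIPOR2, the other adiponectin receptor, had 18.5, 6.33 and 11.8 FPKM in the same order. Both were lowest in the P library, as was ADIPOQ. LEPR, the receptor of leptin, had 5.52, 10.4 and 5.02 FPKM and was highest in the P library, with a log2 ratio of P over E of 0.92 and of L over P of -1.05.

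PLIN1, PLIN4 and CIDEC are coat proteins of the lipid droplet. PLIN1 encodes perilipin 1, which guards the adipocyte droplet against lipases, and had 1.28 FPKM in the E library, 0.836 in the P library and 0.468 in the L library. CIDEC drives the fusion of small droplets into a large one and had 1.73, 0.917 and 0.247 FPKM. PLIN4 encodes perilipin 4, a coat protein of nascent droplets, and had 0.793 and 0.585 FPKM in the E and P libraries and was listed at 0 in the L library. PLIN1 and CIDEC had the same order, with the E library highest and the L library lowest, and PLIN4 was higher in the E than in the P library. The log2 ratio of L over E was -1.45 for PLIN1 and -2.81 for CIDEC, a 2.73-fold and a 7.02-fold lower level. A listed value of 0 may be a failed estimate, as LALBA, which encodes the milk protein α-lactalbumin, was also listed at 0 in the L library and had 70053 FPKM in the E library. No fold is therefore given for PLIN4 against the L library.

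Of the related genes of the same families, PLIN2, PLIN3 and CIDEA had another range and another order. PLIN2, the perilipin of milk fat globules and of most cells that form droplets, had 1298 FPKM in the E library, 452 in the P library and 1268 in the L library. Its level was 1016 times that of PLIN1 in the E library, 541 times in the P library and 2712 times in the L library. CIDEA, a CIDE protein that also acts in milk fat secretion, had 643, 197 and 817 FPKM, which was 371, 215 and 3305 times the level of CIDEC. PLIN3, which is expressed in most tissues, had 78.5, 28.1 and 66.6 FPKM. These 3 relatives were lowest in the P library and close to their E level in the L library, with log2 ratios of L over E of -0.03, 0.35 and -0.24. PLIN1 and CIDEC, by contrast, were below their E level in the L library, and PLIN4 was listed at 0 there. These adipocyte coat genes had a mean under 2 FPKM, where 23.4% of protein-coding genes were at least 2-fold lower in the L library. CIDEB, a further CIDE gene named after its values were seen, was listed at 0 in the E library. It had 0.168 FPKM in the P library and 0.801 in the L library. CIDEB thus shared neither the range nor the order of PLIN2, PLIN3 and CIDEA. The ratios between relatives within a library do not depend on how libraries are scaled, but here they rest on low levels of PLIN1 and CIDEC.

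**Figure D3:**
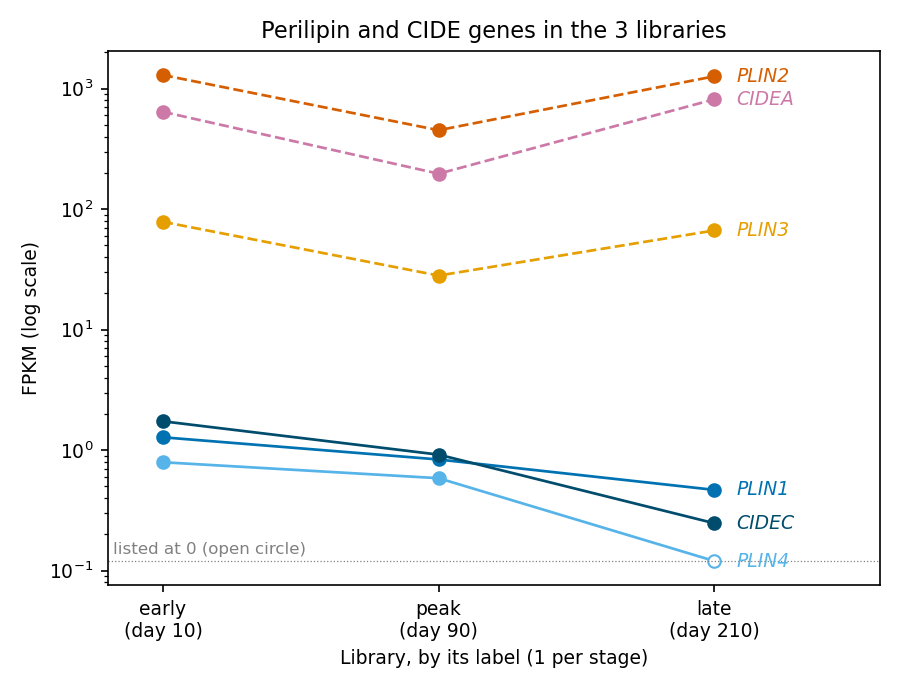
FPKM (vertical axis, log scale) of perilipin and CIDE genes in the E, P and L libraries (horizontal axis, 1 library per stage, named by label). Solid lines are the adipocyte markers PLIN1, PLIN4 and CIDEC, dashed lines their relatives PLIN2, PLIN3 and CIDEA, and the open circle is the listed value of 0. CIDEB is not drawn. The markers stay at or below 1.73 FPKM, PLIN1 and CIDEC being lowest in the L library, and the relatives stay at or above 28.1 FPKM and are lowest in the P library.

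The lipases act in sequence on stored triglyceride. PNPLA2 encodes adipose triglyceride lipase, which takes the first fatty acid, and had 16.0 FPKM in the E library, 7.30 in the P library and 15.6 in the L library. LIPE encodes hormone-sensitive lipase, which acts next, and had 3.06, 1.97 and 4.12 FPKM. Both were lowest in the P library, and the L library was about level with or above the E library, with log2 ratios of L over E of -0.03 and 0.43. The log2 ratio of L over P was 1.10 for PNPLA2 and 1.07 for LIPE, just past a 2-fold difference. After rescaling to a common sum without the 20 most abundant loci, neither reached 2-fold between the L and P libraries, with 0.88 for PNPLA2 and 0.85 for LIPE. Within a library, PNPLA2 was 5.22, 3.71 and 3.79 times as abundant as LIPE in the E, P and L libraries. Neither gene is restricted to adipocytes, and the ratio of LIPE to PLIN1 was 2.40, 2.35 and 8.81 in the same order.

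FABP4 encodes the fatty acid binding protein of adipocytes, which capillary endothelium and macrophages also express. It is listed on scaffold NW_005100812.1 from 6913172 to 6917663, under gene ID 100861279. Its FPKM of 551, 101 and 722 in the E, P and L libraries gave a log2 ratio of -2.45 for P over E and of 2.84 for L over P, the largest in size among the marker genes above 0 in the libraries compared. The L library was above the E library by a log2 ratio of 0.39, so that FABP4 and ADIPOQ, both lowest in the P library, parted between the E and L libraries. FABP4 was 36.4 times as abundant as ADIPOQ in the E library, 24.6 times in the P library and 127 times in the L library.

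The ratios of FABP4 to FABP3 and CD36 varied less between libraries than its ratio to ADIPOQ. Ratios of FABP4 to other genes of milk fat were not taken. FABP3, the fatty acid binding protein of heart and mammary gland, had 3051 FPKM in the E library, 563 in the P library and 3583 in the L library. Its ratio to FABP4 was 5.54, 5.58 and 4.96. CD36, a fatty acid translocase of mammary epithelium, endothelium and adipocytes, had 685, 179 and 782 FPKM, and the ratio of FABP4 to CD36 was 0.804, 0.563 and 0.923. Over the 7 endothelial marker genes with values, none differed 2-fold in any comparison. Of all protein-coding genes, 17.7% did so for P over E, 8.71% for L over E and 25.9% for L over P. The summed FPKM of the 7 endothelial genes was 147, 136 and 157 in the E, P and L libraries. FABP3, CD36 and their ratios with FABP4 were chosen after their values were seen.

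GPD1 encodes the cytosolic glycerol-3-phosphate dehydrogenase, which makes glycerol-3-phosphate for triglyceride. It had 10.9 FPKM in the E library, 4.77 in the P library and 7.66 in the L library. The order of the libraries was that of ADIPOQ, and the differences were smaller, with log2 ratios of -1.19 for P over E and -0.51 for L over E. Among the marker genes above 0 in all libraries and with a mean of at least 1 FPKM, GPD1 was nearest to ADIPOQ in these ratios, at a distance of 1.13, and LIPE was farthest, at 2.22. GPD1 was not particularly close. Of the protein-coding genes under the same filter, 107 lay within its distance and 4430 within that of LIPE, counting ADIPOQ and the gene itself. CEBPA encodes C/EBPα, a factor that drives adipocyte differentiation and is also made in liver, myeloid cells and epithelia. Its 17.9, 12.6 and 17.4 FPKM varied least among the marker genes above 0 in all libraries, the highest level being 1.42 times the lowest.

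Further genes known from adipocytes were taken from a fixed list, of which 15 of 24 had values. PPARG, CEBPB and CEBPD were among those not analysed here. In the P library, 1 was at least 2-fold higher and 5 at least 2-fold lower than in the E library, in the L library 0 and 2, and between L and P 3 were higher and 3 lower. Over all protein-coding genes, the shares higher and lower were 10.9% and 6.80% for P over E, 1.97% and 6.74% for L over E, and 8.56% and 17.4% for L over P. Their median log2 ratios were -0.30, -0.14 and 0.10. ACSL1, which activates long-chain fatty acids, had 98.6 FPKM in the E library, 30.1 in the P library and 100.2 in the L library. RBP4, the retinol carrier of plasma that adipocytes also secrete, had 2.77, 7.01 and 1.51 FPKM and was thus highest in the P library. DGAT2, which completes triglyceride and was named after its values were seen, had 3.53 FPKM in the E library and 0.0828 and 0.173 in the P and L libraries. Its mean was under 2 FPKM, where 23.4% of protein-coding genes were at least 2-fold lower in L than in E. Of the 15 genes, 9 stayed within 2-fold for P over E and 13 for L over E.

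Of the genes that control lipolysis, 13 of 16 on the fixed list had values. At least 2-fold higher and lower were 2 and 2 genes for P over E, 2 and 1 for L over E, and 4 and 2 for L over P, beside the 17.7%, 8.71% and 25.9% of all protein-coding genes at least 2-fold apart. The named members ran in opposite directions. ABHD5, the activator of the lipase encoded by PNPLA2, had 2.27 FPKM in the E library, 6.50 in the P library and 1.29 in the L library, and was highest where PNPLA2 was lowest. ADRB1, a receptor through which catecholamines start lipolysis, had 3.86, 1.02 and 4.88 FPKM. PDE3B, which degrades cAMP and mediates the block of lipolysis by insulin, had 27.0, 15.1 and 47.1 FPKM. PNPLA3, a relative of PNPLA2 found on lipid droplets, had 17.7, 16.2 and 67.2 FPKM and stood out by its level in the L library.

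The labelled tissue was checked against marker lists of the cell types it can hold. Of the 4 defining adipocyte genes, ADIPOQ, PLIN1 and CIDEC had values, and none was listed at 0. Their summed FPKM was 18.1 in the E library, 5.85 in the P library and 6.41 in the L library. Over the 8 epithelial genes the sum was 1686, 1180 and 1610 FPKM, of which ELF5 alone held 879, 244 and 875. The median log2 ratio of P over E of these 8 genes was 0.24. Over the 8 fibroblast genes the sum was 707, 636 and 580 FPKM. In the E, P and L libraries, the median FPKM of the 3 adipocyte genes was 1.73, 0.917 and 0.468. That of the epithelial genes was 77.2, 109 and 62.5, and that of the fibroblast genes 62.9, 54.2 and 49.6. These 3 adipocyte genes were thus low beside the epithelial and fibroblast genes. FABP4 is not on the defining list, and the share of each cell type cannot be read from such levels. In the L library, ADIPOQ, PLIN1 and CIDEC were at least 2-fold below the E library, beside 6.74% of all protein-coding genes. PLIN1 and CIDEC had a mean under 2 FPKM, where 23.4% of protein-coding genes were at least 2-fold lower. The other marker genes with values are not on the defining list. Of these, FABP4, LIPE, PNPLA2, CEBPA and GPD1 had log2 ratios of L over E of 0.39, 0.43, -0.03, -0.04 and -0.51. PLIN4 had 0.793 FPKM in the E library and was listed at 0 in the L library. Of the other lists, 0 of 8 epithelial, 0 of 7 myoepithelial, 0 of 8 fibroblast and 0 of 7 endothelial genes differed 2-fold between the L and E libraries. The share of all protein-coding genes was 8.71%. Of the immune genes, 3 of 8 were at least 2-fold lower and 1 higher, CD3E being the latter and listed at 0 in the E library. In the P library, the immune genes had a median log2 ratio over E of 0.69. The part of these other cell types in the levels of the adipocyte markers was not tested.

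**Figure D4:**
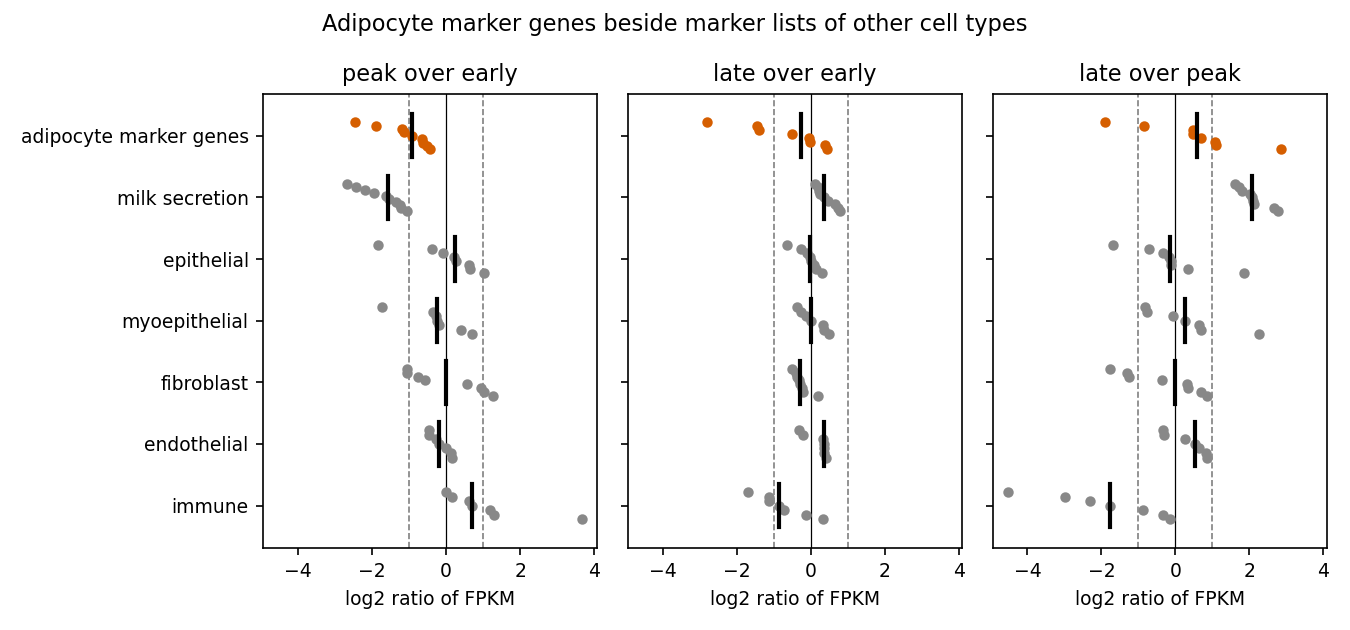
Log2 ratios of FPKM (horizontal axis) for the adipocyte marker genes and for marker lists of other cell types (vertical axis), for P over E, L over E and L over P. Each point is a gene above 0 in both libraries, black bars are medians, and dashed lines mark a 2-fold difference. For L over E the adipocyte markers spread from -2.81 to 0.43, and the endothelial, fibroblast and epithelial genes stay within 2-fold.

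The protein-coding genes most like ADIPOQ were sought by the distance of their log2 ratios of P and of L over E, across 11918 other genes above 0 in all 3 libraries with a mean of at least 1 FPKM. The nearest 5 were PLK2, MYCL, ADGRF1, LOC102172041 and LOC102187742, at distances of 0.09 to 0.39. PLK2, a stress-responsive kinase, had 154 FPKM in the E library, 42.8 in the P library and 61.5 in the L library. ADGRF1, an adhesion G protein-coupled receptor, had 13.8, 4.09 and 5.33 FPKM. None of the other marker genes was among them. A likeness over 3 libraries describes their order and size of difference only.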

How the data were processed

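RNA of 5 goats was pooled per stage into 1 library each, and 3 libraries were grouped by their labels. Trimmed reads had been mapped by the authors with TopHat 2.0.9 and assembled with Cufflinks 2.1.1 and Cuffmerge, and the deposited FPKM per locus came from Cuffdiff. Read numbers per locus are unknown, so that no interval is given. Of the deposited values above 0, 43.2% have a 7th digit, and 97.5% of these end in 5. What gave rise to this is not given in the sources used here.

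Gene IDs were matched to the ARS1.2 gene table for names only. FABP4 was matched through the synonym A-FABP and CAVIN1 through its older symbol, and 97 of 115 listed symbols had values. Loci listed with a single gene ID were summed per gene ID. Ratios were taken from FPKM, with 0 set to 0.001 for counting, and genes at least 2-fold apart among protein-coding genes above 0 in either library were called. No test was possible with 1 library per stage. Alternatives were folds of 4 and 1.5, pseudocounts of 0.1 and 1, filters on low FPKM, the most abundant locus per gene, centring, rescaling, and exchanged columns.

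All marker genes are given. From each further list, up to 4 genes with the largest mean absolute log2 ratio among those with at least 1 FPKM in all libraries could be named, and the other genes named were chosen after their values were seen, as were the matching by synonym, the distance of the other marker genes from ADIPOQ and the background at a mean under 2 FPKM. The members and lists were chosen with earlier results of these data known. Fold calls were tested on simulated data. Python 3.11.15, numpy 2.4.6, pandas 2.3.3 and matplotlib 3.10.9 were used.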

Additional observations from a re-analysis of the deposited data

How the results depend on the processing

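Of the counts of adipocyte markers at least 2-fold apart, 28 stayed within 1.5 times under an alternative and 8 did not. Among the 28 were those with exchanged columns and with the most abundant locus per gene. Neither could move a count, as the counts against E were equal and each marker gene had 1 locus. A kept count can also hold other genes. For L over P rescaled without the 20 most abundant loci, 1 was higher and 3 lower, in place of 3 and 2. At a fold of at least 4, 1 gene remained for P over E, 2 for L over E and 2 for L over P, and at 1.5-fold 7 were called for P over E, in place of 4. The share of all protein-coding genes was not taken under the alternatives. Whether their counts exceed that share therefore cannot be said. With a pseudocount of 1, which shrinks low genes, 2 were called for L over E and 2 for L over P. Requiring 1 FPKM or more in the L or P library left 3 for L over P, since CIDEC and PLIN4 were no longer counted. Rescaling without the 20 most abundant loci gave 2 for P over E. It moved the median log2 ratio of protein-coding genes from -0.03 to 0.22 for P over E and from 0.03 to -0.18 for L over P. An exchange of the P and L columns reversed the median log2 ratio of L over P from 0.47 to -0.47 with PLIN4 at 0.001. It swaps the comparisons with E and inverts L over P, so the counts of 4, 4 and 5 could not change. The genes behind the counts against E do change, and L over P went from 3 higher and 2 lower to 2 higher and 3 lower. Other medians kept their sign and lay between -0.92 and -0.51 for P over E and between -0.96 and -0.27 for L over E, where -0.96 was without FABP4 and -0.27 without genes listed at 0. For L over P they lay between 0.26 and 0.58. No paired analysis was possible because the stages hold 1 library apiece, and none could be left out within a stage.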

Other observations

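Genes known from brown and beige adipocytes, which burn fat to make heat, had values for 5 of 8 listed genes, and UCP1, their defining gene, was not analysed here. DIO2, which activates thyroid hormone, had 124 FPKM in the E library, 28.6 in the P library and 92.1 in the L library. The listed locus of DIO2 spans 580 nt. EBF2, a factor of brown adipocyte precursors, had 1.71, 2.46 and 2.35 FPKM. CIDEA is on this list as well, with the FPKM of 643, 197 and 817 given above. PRDM16, a factor of brown adipocyte identity that was named after its values were seen, had 0.0600, 0.108 and 1.06 FPKM, and was thus near or under 1 FPKM in each library. PPARGC1A, also named after its values were seen, had 0.754, 1.35 and 1.64 FPKM. For P over E, 0 of the 5 genes were at least 2-fold higher and 2 lower, beside 10.9% and 6.80% of all protein-coding genes. The counts were 2 and 0 for L over E, beside 1.97% and 6.74%, and 3 and 0 for L over P, beside 8.56% and 17.4%.

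The protein-coding genes nearest to FABP4 in their log2 ratios of P and L over E were PPP2R2B, LOC102175925, CEACAM19, LOC102175184 and GPR160, at distances of 0.04 to 0.14. PPP2R2B, a regulatory subunit of protein phosphatase 2A, had 28.3 FPKM in the E library, 5.28 in the P library and 37.8 in the L library. This search was added after the values of FABP4 were seen.

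No locus without a gene ID overlapped a marker gene. Within 20 kb of the marker genes lay 6 such loci, 1 beside LIPE, 2 beside PNPLA2 and 3 beside GPD1. XLOC_050443, listed on scaffold NW_005100983.1 from 44193 to 44515 at 5390 nt from PNPLA2, had 55.6 FPKM in the E library, 33.9 in the P library and 57.9 in the L library, and was lowest in the P library like PNPLA2. XLOC_036223, at 10633 nt from LIPE, had 6.33, 17.6 and 16.7 FPKM and was lowest in the E library, unlike LIPE. Whether these loci belong to the genes beside them was not tested.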
